A study of Homo sapiens with 2 samples.

Results

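Tubulin isotypes are the gene products from which microtubules are built, and 10 of their genes were examined: the alpha-tubulins TUBA1A, TUBA1B, TUBA1C and TUBA4A, the beta-tubulins TUBB, TUBB2A, TUBB2B, TUBB3 and TUBB6, and the gamma-tubulin TUBG1. Every probe set that the array annotation pairs with exactly 1 of these symbols was taken, which gave 19 probe sets among 19775 genes named on the array. RNA came from the established cell line PLC/PRF/5, derived from a human hepatocellular carcinoma. One culture, the chemoresistant hepatospheres, was grown as spheroids and exposed to cisplatin, a DNA crosslinking agent, together with doxorubicin, a topoisomerase II poison. The other culture, called differentiated, was derived by giving spheroids fetal bovine serum and letting them settle on the dish. Neither label says whether drug had been given to the spheroids from which the attached cells were made. Each culture was hybridised to 1 array, so no difference below has an error or a test, and growth form, serum, attachment and possibly drug exposure cannot be told apart. The values are linear MAS5 signals, a summary of probe brightness scaled globally on each array, and a difference was always taken within 1 probe set, between the arrays. Signals of different genes are not measures of their relative mRNA amounts.

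Microtubules are hollow polymers of alpha- and beta-tubulin dimers, which serve as tracks for transport, form the mitotic spindle and support cell shape, while gamma-tubulin sits in ring complexes that start new filaments. Each of the alpha and beta subunits is encoded by several genes whose proteins are very alike in their folded core and differ mostly in their acidic C-terminal tails. Some isotypes are made in nearly all dividing cells and others mainly in neurons or platelets, and beta-tubulin is the target of taxanes and vinca alkaloids, neither of which the labels name. Cells also sense free tubulin dimers and destroy tubulin mRNA when dimers are in excess.

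The isotypes went in different directions. TUBA1A stood 13.1-fold higher in hepatospheres, TUBB2A 2.37-fold and TUBB2B 2.25-fold, all of them isotypes known for their abundance in brain. A probe set annotated to both TUBB2A and TUBB2B went the other way, at -0.998 on the log2 scale. The widely made isotypes TUBA1B, TUBA1C and TUBB, the beta-tubulin TUBB6 and TUBG1 all stood lower, by 1.41-fold to 1.71-fold. TUBB3, an isotype of neurons, was 1.15-fold lower on its brighter probe set and 1.33-fold lower on the other. TUBA4A was 1.07-fold higher. Among the 10 members, 3 stood at least 2-fold up in hepatospheres and 0 at least 2-fold down, where 12.5% and 8.83% of the 12766 genes measured were. Under other scalings this split was 1 higher and 1 lower with each array centred on its median, and 1 higher and 6 lower with arrays scaled to their poly(A) control RNAs. Of all genes, 9.09% were 2-fold higher and 14.6% lower with median centring, and 3.22% and 46.5% with poly(A) scaling. These scalings shift the median of all genes by -0.23 and -0.97 on the log2 scale, so every direction here is relative to the bulk of genes. The median difference of the members was -0.35 on the log2 scale, against 0.05 over all genes measured.

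The higher and lower isotypes are partly genomic neighbours, and the 250 bases before the transcription start of 5 of them are shown because these genes lie side by side yet differ in direction, or lie side by side and share one. In the RefSeq gene order TUBA1B, TUBA1A and TUBA1C follow each other on chromosome 12 with 0 other protein-coding genes between neighbours, and TUBB2A and TUBB2B do so on chromosome 6. The sequences are from RefSeq, assembly GRCh38.p14, read 5′ to 3′ along each gene, and end just before the start site. They span, for TUBA1A, chr12:49189081-49189330 (minus strand), for TUBA1B chr12:49131396-49131645 (minus strand), for TUBA1C chr12:49264832-49265081 (plus strand, the most downstream of 3 starts), for TUBB2A chr6:3157545-3157794 (minus strand) and for TUBB2B chr6:3227654-3227903 (minus strand). Capitals mark 4 motifs searched on both strands: CCAAT (the CCAAT box), GGGCGG (the GC box), TGACGTCA (the cyclic AMP response element, CRE) and TTTGAA (the cell cycle homology region, CHR).
TUBA1A: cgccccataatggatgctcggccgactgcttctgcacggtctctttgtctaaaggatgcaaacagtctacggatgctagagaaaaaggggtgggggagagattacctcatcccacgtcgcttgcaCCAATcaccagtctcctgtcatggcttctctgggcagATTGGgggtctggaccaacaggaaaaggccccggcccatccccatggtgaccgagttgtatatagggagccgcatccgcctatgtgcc
TUBA1B: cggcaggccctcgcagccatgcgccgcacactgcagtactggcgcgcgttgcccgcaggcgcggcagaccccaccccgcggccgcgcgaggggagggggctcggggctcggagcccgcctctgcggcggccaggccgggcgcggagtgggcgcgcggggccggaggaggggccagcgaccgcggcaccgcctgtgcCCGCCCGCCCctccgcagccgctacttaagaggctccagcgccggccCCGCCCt
TUBA1C: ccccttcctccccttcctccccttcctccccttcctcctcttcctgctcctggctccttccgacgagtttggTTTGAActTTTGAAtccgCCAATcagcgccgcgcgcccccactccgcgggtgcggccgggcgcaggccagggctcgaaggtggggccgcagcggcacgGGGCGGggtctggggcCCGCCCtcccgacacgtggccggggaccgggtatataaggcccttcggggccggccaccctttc
TUBB2A: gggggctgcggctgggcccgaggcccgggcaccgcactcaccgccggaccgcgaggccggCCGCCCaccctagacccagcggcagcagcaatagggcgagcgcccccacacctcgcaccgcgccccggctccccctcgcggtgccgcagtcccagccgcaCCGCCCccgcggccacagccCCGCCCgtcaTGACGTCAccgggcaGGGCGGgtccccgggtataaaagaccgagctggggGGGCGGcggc
TUBB2B: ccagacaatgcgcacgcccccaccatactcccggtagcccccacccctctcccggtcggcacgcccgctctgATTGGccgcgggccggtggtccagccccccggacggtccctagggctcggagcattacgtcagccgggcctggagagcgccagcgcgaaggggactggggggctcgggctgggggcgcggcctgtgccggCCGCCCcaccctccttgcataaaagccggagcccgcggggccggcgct

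The neighbours' upstream sequences differ in these letters. TUBA1A held 2 CCAAT boxes, beginning 125 and 88 bases before the start, and 0 GC boxes. TUBA1B held 0 CCAAT boxes and 3 GC boxes, 2 of which overlap. TUBA1C held 1 CCAAT box, 2 GC boxes and 2 CHR motifs. TUBB2A held the CRE, 60 bases before the start, with 5 GC boxes, and TUBB2B held 1 CCAAT box and 1 GC box. Across all 10 members, taking the most downstream start of each, a CCAAT box occurred in 6, a GC box in 9, a CRE in 1 and a CHR in 1. Of the 35116 upstream windows of equal length in the RefSeq table, 32.0% held a CCAAT box, 42.6% a GC box, 1.65% a CRE and 13.3% a CHR. The windows of the members were richer in G and C, with a median of 75.4% against 58.0%. For each member with several starts, the most downstream window was the richest, as in TUBB6 with 83.6% against 55.2%. The shares of the members and of all windows may therefore not be like for like. TUBA1A, the member furthest apart, was at 56.4% and TUBA1B at 81.2%. These matches describe letters only, and no binding was measured.

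Signal on the arrays is given for the members in the order of their roles, beginning with the alpha-tubulins, and where a pair of signals is given the differentiated cells come first. TUBA1A (gene 7846), the main alpha-tubulin of young neurons and a cause of lissencephaly when mutated, had a signal of 115 in differentiated cells against 1504 in hepatospheres. The difference was 3.71 on the log2 scale, and only 58 genes of 12766 stood further up. The differentiated signal was close to the floor of 84.1, the higher of the median signals of the 2 arrays, below which a signal was set to the floor. With log2 of signal plus floor the difference was 2.99. TUBA1A has 1 probe set, whose name ends in _s_at, the suffix for probes that match several related transcripts, so no other probe set was there to compare with it.

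TUBA1B (gene 10376), the alpha-tubulin found in nearly all dividing cells, had signals of 34719 in differentiated cells against 20341 in hepatospheres on its brightest probe set, 1.71-fold lower. Its next 4 probe sets read 30188 and 17810, 28655 and 15952, 25136 and 15735, and 24176 and 11748. All 5 were lower in hepatospheres, between -0.68 and -1.04 on the log2 scale, so that 1 of them was just past 2-fold (2.06-fold lower) and the rest were not. The 6th read 28.8 and 15.6, below the floor on both arrays.

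TUBA1C (gene 84790), another widely made alpha-tubulin, read 25296 and 15590 on its brightest probe set, 1.62-fold lower in hepatospheres, and 24267 and 12401 on the other, 1.96-fold lower. The probe sets of TUBA1B that reached the floor and both of TUBA1C end in _x_at, the suffix for probes that may bind unrelated or closely similar sequence. Their 7 readings may therefore share RNA from both genes and are not independent. TUBA4A (gene 7277), an alpha-tubulin prominent in platelets and mutated in some families with motor neuron disease, read 3169 and 3396. Its log2 difference was 0.10, and it became -0.15 with each array centred on its median.

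**Figure D1:**
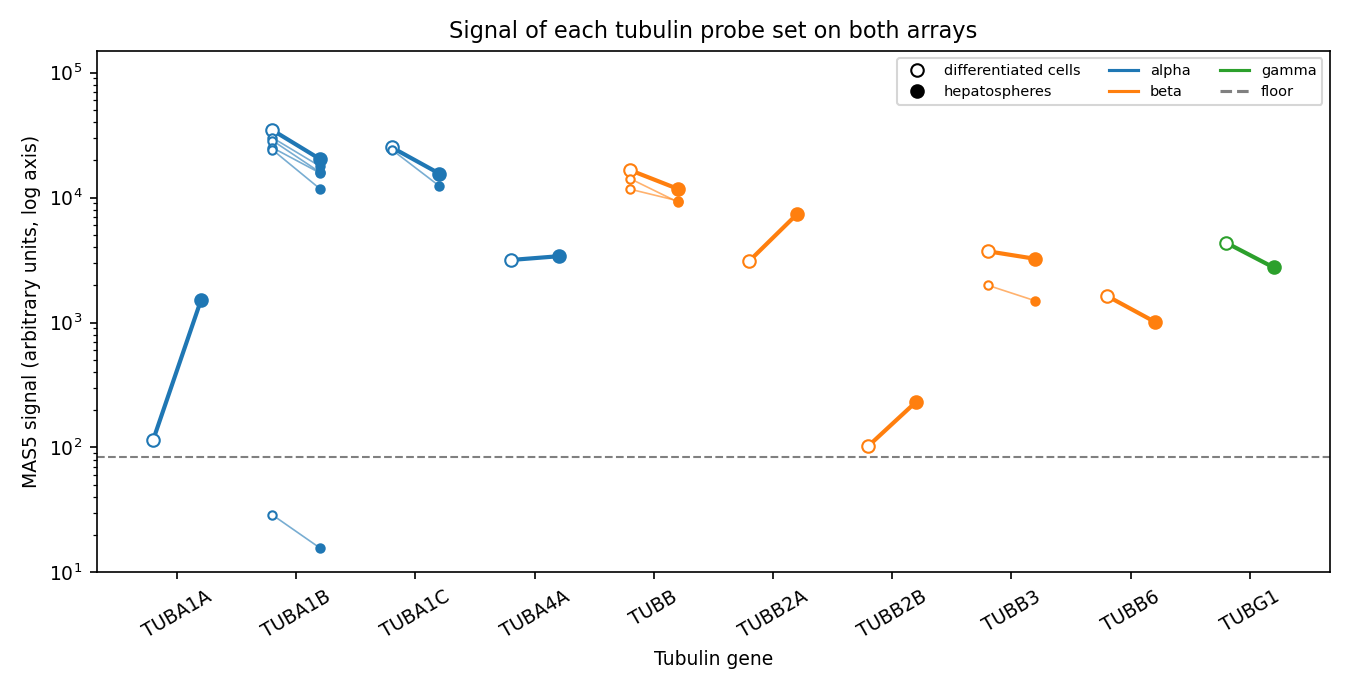
MAS5 signal in arbitrary units on a log axis, for all 19 probe sets of the 10 tubulin genes, with open circles for differentiated cells, filled circles for hepatospheres, 1 array each, and a thick line for the brightest probe set of a gene. TUBA1A goes from 115 to 1504, TUBB2A from 3109 to 7368 and TUBB2B from 103 to 232, while the lines of TUBA1B, TUBA1C, TUBB, TUBB3, TUBB6 and TUBG1 slope down; the dashed line is the floor at 84.1.

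Among the beta-tubulins, TUBB (gene 203068), the class I isotype made in almost every cell, had signals of 16615 in differentiated cells against 11767 in hepatospheres, 1.41-fold lower. Its other probe sets read 14203 and 9237, and 11692 and 9440. All 3 were lower, and the one with a plain _at name, designed for a single transcript, differed by -0.31 on the log2 scale. TUBB6 (gene 84617), the class V isotype, read 1636 and 1016 on its 1 probe set, 1.61-fold lower. TUBB3 (gene 10381), the class III isotype of neurons that has been linked to taxane resistance in tumours, read 3723 and 3238 on the brighter probe set, and 1990 and 1493 on the other. The TUBB3 differences were -0.20 and -0.41 on the log2 scale, both on _x_at probe sets.

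TUBB2A (gene 7280) and TUBB2B (gene 347733) encode the nearly identical class II isotypes that are abundant in brain, and mutation of TUBB2B disturbs cortical folding. TUBB2A went from 3109 in differentiated cells to 7368 in hepatospheres on a plain _at probe set, 1.24 higher on the log2 scale. TUBB2B read 103 and 232 on an _x_at probe set, 1.17 higher. The TUBB2B signal in differentiated cells was close to the floor, and raising the floor to the 60th percentile left a difference of 0.60. One further probe set is annotated to TUBB2A and TUBB2B together and is therefore no member. Its signal was 774 in differentiated cells against 387 in hepatospheres, -0.998 on the log2 scale, opposite in direction to both. When it was averaged into both genes, a setting chosen after its value was seen, TUBB2A stood at 0.12 and TUBB2B at 0.09. The 2-fold calls of TUBB2A and TUBB2B thus rest on 1 probe set each, and the array's 3 readings of this pair disagree.

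TUBG1 (gene 7283), the gamma-tubulin of the ring complexes at centrosomes, had signals of 4361 in differentiated cells against 2760 in hepatospheres on its 1 probe set with a plain _at name, 1.58-fold lower.

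**Figure D2:**
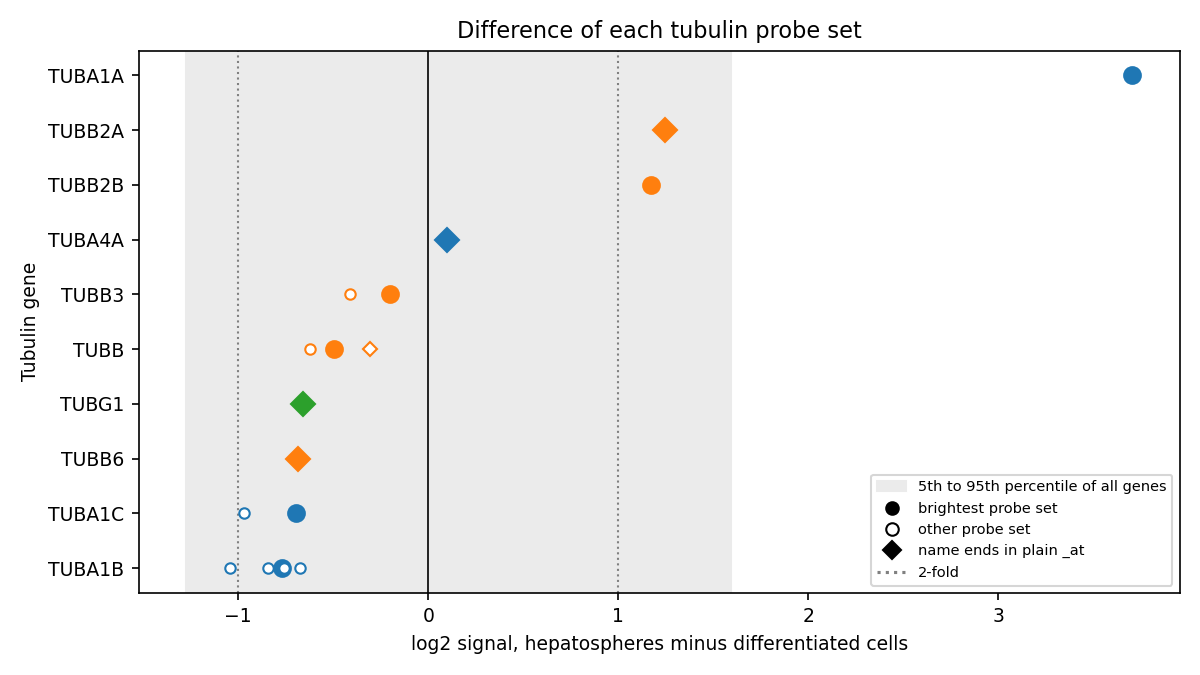
Log2 signal in hepatospheres minus differentiated cells for the 18 tubulin probe sets that reached the floor, with filled markers for each gene's brightest one, diamonds for plain _at names, and a grey band from the 5th to the 95th percentile of all genes (-1.27 to 1.59). TUBA1A at 3.71 lies outside the band. Probe sets of 1 gene agree in sign for TUBA1B, TUBA1C, TUBB and TUBB3, and each other gene has only 1 here. The probe set annotated to both TUBB2A and TUBB2B, at -0.998, is not drawn.

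The size of the differences can be set beside genes of similar signal. All 10 members were above the floor on both arrays, and 7 lay in the brightest 25% of genes by mean signal, where 9.34% stood 2-fold or more higher in hepatospheres and 9.02% lower. Of these 7, TUBB2A alone was 2-fold apart. TUBA1A lay in the second 25% from the bottom and TUBB2B in the dimmest 25%, where 15.1% and 16.1% of genes were 2-fold higher. Over probe sets, 3 of the 18 at the floor were 2-fold higher and 1 lower, against 11.6% and 9.59% of all 23825. Only 6 of the 19 have plain _at names, and for 4 genes, TUBA1A, TUBA1C, TUBB2B and TUBB3, every probe set is of the _s_at or _x_at kind. Without such probe sets 5 members could be measured, and 1 of them, TUBB2A, was 2-fold higher.

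The remaining tubulin genes were also spread in both directions. Of 14 listed, 4 have no probe set of their own symbol alone, 2 were below the floor on both arrays and 8 were measured. Of these, 2 were past 2-fold up in hepatospheres and 0 down, with a median of 0.08. The median was -0.21 with median centring and -0.23 with poly(A) scaling. Both of these took in 9 genes, since TUBB1, below the floor as reported, then reached it. The -0.21 is the difference of TUBB1 itself. Counts of this and the following lists stand beside 12.5% of all genes higher, 8.83% lower and an all-gene median of 0.05. With median centring these were 9.09%, 14.6% and -0.19, and with poly(A) scaling 3.22%, 46.5% and -0.93. As for the tubulins, poly(A) scaling moves every one of these lists down. TUBAL3, an alpha-tubulin-like gene, read 78.1 and 626 and was at least 7.44-fold higher, since it lay below the floor in differentiated cells. TUBG2, the second gamma-tubulin and the neighbour of TUBG1 on chromosome 17 with 0 protein-coding genes between, read 448 and 1176, 2.63-fold higher, whereas TUBG1 was lower. TUBB4B, the widely made class IVb beta-tubulin, read 9543 and 4944, 1.93-fold lower, and its other probe set stood at -1.07 on the log2 scale. TUBB4A, the class IVa isotype of brain, read 208 and 361, a log2 difference of 0.80 that was -0.23 with poly(A) scaling. The delta- and epsilon-tubulins TUBD1 and TUBE1, which act at centrioles, stood at -0.09 and -0.01.

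The chaperonin CCT and its partner prefoldin fold new tubulin chains, and of 12 members measured 0 were 2-fold higher and 2 were lower in hepatospheres (median -0.33). A difference above 0 was seen in 1 of these 12, against 52.7% of all genes. The 2 that were 2-fold lower were the chaperonin subunits CCT6A, from 8042 to 3416, and CCT2, from 17320 to 8523. The tubulin cofactors, which assemble alpha with beta subunits, had 0 higher and 2 lower of 7, with 1 of the 7 above 0 (median -0.44). TBCC, which triggers release of the finished dimer, read 2193 and 1085, and TBCEL, which destabilises tubulin, 761 and 376. Both were barely past 2-fold, at 2.02-fold and 2.03-fold lower. TTC5, the protein that recognises newly made tubulin on ribosomes and starts decay of its mRNA, read 153 and 145, and its partner SCAPER, which recruits the enzyme complex that degrades the mRNA, 365 and 529, so 0 of these 2 were 2-fold apart.

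Genes that nucleate, sever or bind microtubules differed gene by gene. Of 11 members of the gamma-tubulin ring complex and its anchors, 1 was 2-fold higher, 1 lower and the median was -0.47. The ring subunit TUBGCP3 read 1458 and 380 on its brightest probe set, 3.84-fold lower, but its probe sets ran from -1.94 to 0.80 on the log2 scale. The anchor AKAP9 read 531 and 1372, 2.58-fold higher, and TUBGCP2 stood at -0.60. Among stathmins and severing enzymes 0 of 8 were higher and 2 lower (median -0.45). STMN1, which binds free tubulin dimers and promotes disassembly, read 1780 and 405, 4.40-fold lower. The AAA ATPase FIGNL1 read 1752 and 331, 5.29-fold lower.

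Among proteins along the microtubule wall, of 17 measured, 4 were 2-fold higher and 0 lower (median 0.31). Median centring gave 4 and 1 of 17 (median 0.06), against 9.09% and 14.6% of all genes. Poly(A) scaling gave 1 and 5 of 16 (median -0.71), against 3.22% and 46.5%. MAP1B, a microtubule-binding protein of growing axons, read 38.0 and 757, at least 8.99-fold higher, although its other probe set at the floor stood at only 0.37 on the log2 scale. EML2 was 3.19-fold higher on its brighter probe set and stood at 0.16 on the other. MAP1LC3B, the autophagy protein LC3B, was 2.70-fold higher. MAPT, the axonal protein tau, read 251 and 644, 2.57-fold higher, with 4 probe sets between 1.01 and 2.50. Proteins of microtubule ends had 3 higher and 2 lower of 18 (median -0.15). These counts became 1 and 5 of 18 with median centring, where 9.09% and 14.6% of all genes were 2-fold higher and lower. They became 0 and 10 of 17 with poly(A) scaling, where 3.22% and 46.5% of all genes were. CLIP2 was 3.36-fold higher. The TACC family was split. TACC1 was 2.04-fold higher on its brightest probe set, with probe sets from 0.20 to 1.12 on the log2 scale. Its difference was 0.77 with median centring and -0.003 with poly(A) scaling. TACC2 was 2.34-fold lower on probe sets from -1.67 to -0.32, and the spindle protein TACC3 2.11-fold lower. Enzymes that modify tubulin had 2 higher and 3 lower of 19 (median 0.01). These became 1 and 5 of 19 with median centring (median -0.24), and 0 and 10 of 18 with poly(A) scaling (median -1.05). The polyglutamylase TTLL6 was at least 2.92-fold lower and TTLL1 2.13-fold higher. TTLL1 read 91.2 in differentiated cells, close to the floor. Its log2 difference was 0.84 with median centring and 0.06 with poly(A) scaling. TTLL11 was 2.45-fold lower on its brightest probe set and stood at 0.03 on another. The detyrosinating enzymes went opposite ways, VASH2 2.24-fold lower and VASH1 at least 2.08-fold higher, from 35.2 to 175, with another VASH1 probe set at 0.05.

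**Figure D3:**
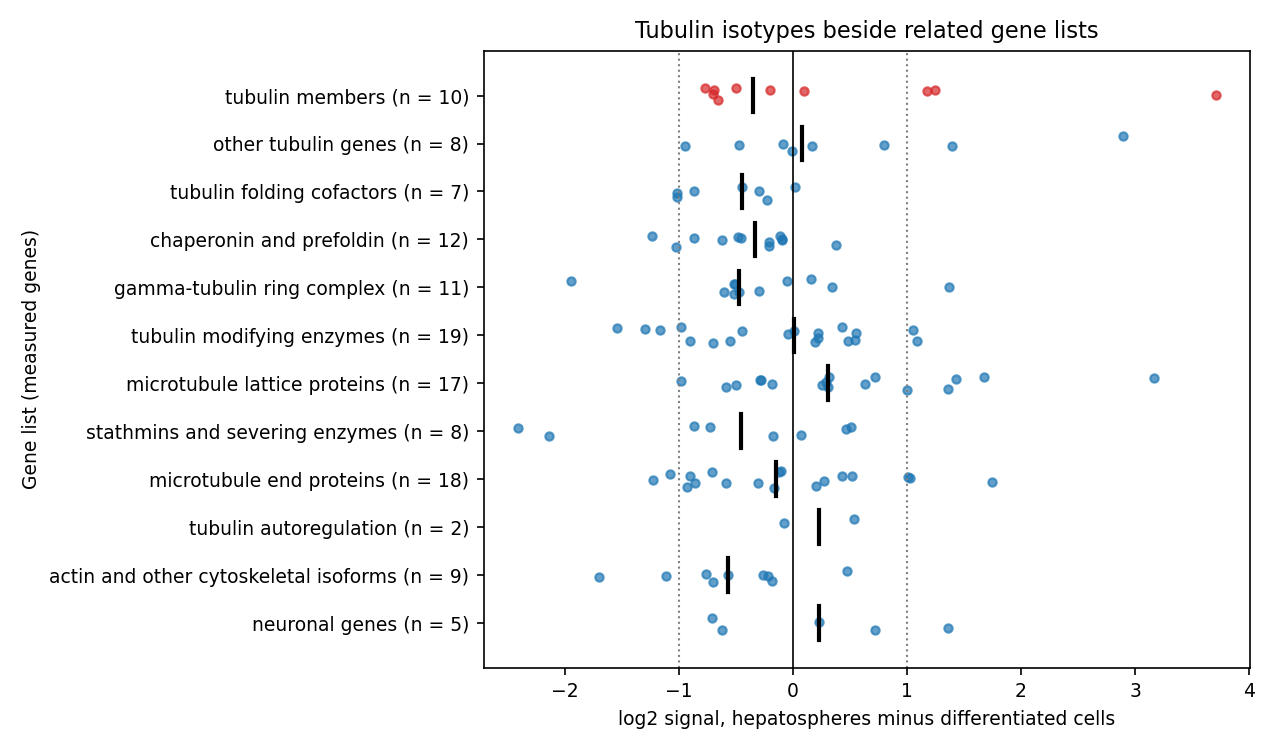
Log2 signal in hepatospheres minus differentiated cells (horizontal axis) for each measured gene of the tubulin members, in red, and of related gene lists, in blue, with a black bar at the median of each list. The tubulin members spread from -0.77 to 3.71 around a median of -0.35, and cofactors, chaperonin and actin lists lie mostly to the left of 0.

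Other cytoskeletal genes were lower or little apart, with 0 of 9 higher and 2 lower (median -0.57). Nuclear lamin LMNB1 was 3.25-fold lower and keratin KRT8 2.16-fold lower. VIM, the mesenchymal filament protein vimentin, read 64.3 and 117. Because TUBA1A, TUBB2A, TUBB2B and TUBB3 are known from neurons, a list of 18 neuronal genes was read as well. Of these, 13 were below the floor on both arrays, among them DCX, STMN2, GAP43, NEFL and RBFOX3. Of the 5 measured, 3 stood above 0 and 2 below, with 1 of them 2-fold higher, MAPT, and 0 lower. With median centring 2 of 5 stood above 0. With poly(A) scaling 1 of 4 did, MAPT at 0.33, and 0 were 2-fold higher and 2 lower. Of all genes, 3.22% and 46.5% were then 2-fold higher and lower. MAP2 read 41.3 and 138. As reported, the genes below 0 were INA, which read 200 and 122 (-0.71 on the log2 scale), and SNAP25 (-0.62). The summed signal of the 5 was 1978 in differentiated cells and 1951 in hepatospheres. It was mostly that of SNAP25 in differentiated cells (1330 and 863) and does not describe the others.

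Hepatocyte markers were present on both arrays, with all 12 members that have a probe set measured. Of these, 10 stood above 0 (median 0.88), with 5 of them 2-fold higher in hepatospheres and 1 lower. With poly(A) scaling 5 stood above 0 (median -0.15), and 2 were 2-fold higher and 2 lower, against 3.22% and 46.5% of all genes. TTR, APOA2 and APOH stood at 2.49, 2.34 and 1.63 on the log2 scale. ALB, albumin, read 10276 and 27887. AHSG, the plasma protein fetuin A and the only one 2-fold lower as reported, read 9212 and 4106. Of 10 markers of fibroblasts, blood and endothelium with a probe set, 5 were below the floor on both arrays: the blood gene PTPRC, the endothelial VWF and CDH5, and COL1A2 and PDGFRB of fibroblasts. The matrix genes LUM and COL3A1 were at least 31.8-fold and 8.07-fold higher, and COL1A1 was 1.62-fold higher with probe sets from -0.37 to 1.99. The summed signal of the 5 measured, 3799 in differentiated cells and 7752 in hepatospheres, was mostly PECAM1 (3388) on the first array and PECAM1 (3787) and LUM (2677) on the second. The part of these markers in the tubulin differences was not tested. Each array holds the pooled RNA of a whole culture, in which fewer cells of a kind and less RNA per cell cannot be told apart. Among control probe sets, the 24 for poly(A) RNAs were between 0.73 and 1.39 higher on the log2 scale on the hepatosphere array, and the 9 hybridisation controls between 0.12 and 0.24. The ratio of 3′ to 5′ signal was 1.48 in differentiated cells and 2.64 in hepatospheres for ACTB, and 0.99 and 1.04 for GAPDH, and the part of this in the tubulin values was not tested.

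**Figure D4:**
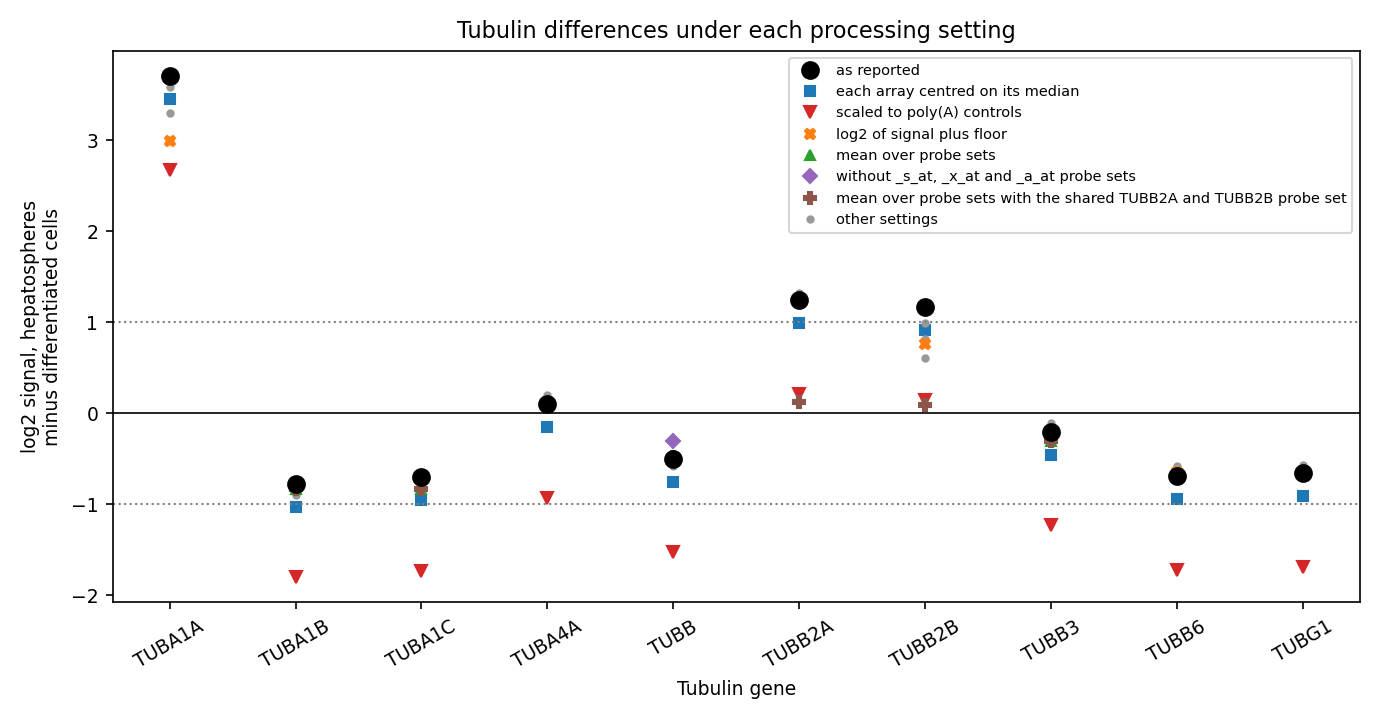
Log2 signal in hepatospheres minus differentiated cells for each tubulin gene under the reported processing (black) and each alternative. TUBA1A stays between 2.68 and 3.71 under those that measured it, TUBB2A and TUBB2B come down to 0.12 and 0.09 when their shared probe set is averaged in, and scaling to the poly(A) controls (red) moves every gene down.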

How the data were processed

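Gene expression was measured on 2 Affymetrix arrays, 1 per group, grouped by source name in the labels. The authors deposited linear intensity values made with MAS5, per the submitters' processing notes. Its version, its scaling target and any detection calls were not given in the sources used here. Of 54675 probe sets, 62 were controls, 41091 had 1 gene symbol in GEO's array annotation, 1801 several and 11721 none. All 10 tubulin genes matched a RefSeq gene by identifier and had an upstream sequence.

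The brightest probe set by mean log2 signal stood for a gene. Signals below the floor of 84.1 (the higher of the arrays' 50th percentiles) were set to it before log2, which makes such folds lower bounds, and a gene counted as measured if its signal reached the floor on either array. No test was possible with 1 array a group: differences, counts past 2-fold and medians are described, beside the same over all genes. The number of arrays limits the precision. The script was tested on simulated data. Members and lists were chosen with earlier results of these data known. All members are named, with up to 4 furthest-apart genes of each related list and TTC5, STMN1, TUBB4B, TUBGCP2, VIM, MAP2 and MAPT; TUBD1, TUBE1, VASH1, AHSG, PECAM1 and the genes named as below the floor were chosen after their values were seen, as were the motifs. Alternatives were median centring, quantile normalization, loess (span 0.3), poly(A) scaling, a floor at the 40th or the 60th percentile, none at all, adding the floor to signals before log2, averaging a gene's probe sets, and leaving out probe sets ending in _s_at, _x_at or _a_at. One was added after seeing the data, which averages in the probe set shared by TUBB2A and TUBB2B. Python 3.11.15, numpy 2.4.6, pandas 2.3.3, statsmodels 0.14.6 and matplotlib 3.10.9 were used.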

Additional observations from a re-analysis of the deposited data

How the results depend on the processing

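The count of 3 members at least 2-fold higher became 1 with each array centred on its median, 1 with scaling to the poly(A) controls, 1 without probe sets ending in _s_at, _x_at or _a_at (5 members measured), and 1 with the probe set shared by TUBB2A and TUBB2B averaged in. It was 2 or 3 under the other 7 alternatives. The count of 0 members 2-fold lower became 1 with median centring, TUBA1B at -1.02 on the log2 scale, and 6 with poly(A) scaling. It stayed 0 under the rest. Of all genes, 9.09% were 2-fold higher and 14.6% lower with median centring, and 3.22% and 46.5% with poly(A) scaling. The median difference was -1.38 with poly(A) scaling. Of 105 differences of single genes under an alternative, 92 moved by less than 1.5-fold and 13 by more, 10 of them with poly(A) scaling. Many of the 92 could not move. All 10 members were above the floor on both arrays, so a lower floor or none left every difference, and the counts above, as reported. Averaging a gene's own probe sets could not change a gene that has only 1. The 92 is therefore not a measure of how stable the differences are. None of the 3 members 2-fold higher changed sign under an alternative that measured it, and TUBA4A did under median centring (-0.15) and poly(A) scaling (-0.93). With the poly(A) scaling TUBA1A stood at 2.68, TUBB2A at 0.21 and TUBB2B at 0.14. The cause of these shifts was not tested. No paired analysis was possible because each group has 1 array, and no replicate could be left out. TUBA1A and TUBB2B read only 115 and 103 in differentiated cells, near the floor of 84.1, which limits how well their folds are known.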
